A study of Mus musculus with 8 samples.

Results

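Molecular chaperones and heat shock proteins were examined in the blood of mice exposed to restraint stress (RST), as 40 genes chosen by name: 11 HSP70 family members, 13 DNAJ (HSP40) co-chaperones, 7 subunits of the cytosolic chaperonin CCT, and 9 others that include a small heat shock protein, HSP90 paralogs of organelles, the mitochondrial chaperonin, BAG co-chaperones and heat shock factors. A gene was taken as measured where a probe set carried its symbol as the only gene name. That held for 39 of the 40 genes, with 110 of the 45101 probe sets of the array. In 37 of them at least 1 probe set passed a filter on dim signals (91 of the 25084 probe sets tested, and 37 of the 11762 genes tested). Hspa1a and Hsf2 lay below the filter, and Hsf1 was not analysed here.

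Whole blood was taken on Day 7 from 8 female C57BL/6J mice, 1 array per mouse. The labels give their age as 6 to 8 weeks, which the methods state as the age at purchase, before acclimation and restraint. The 4 RST mice were held in ventilated tubes for 6 h per day. The 4 control mice stayed in their cages and had no food or water in those hours. Each array reports log2 levels for a mixture of red cells, platelets and white cells, in which fewer cells of a type and less RNA per cell cannot be told apart.

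Chaperones hold unfolded proteins and let them fold or pass to degradation. HSP70 proteins bind short exposed stretches in cycles driven by ATP, DNAJ proteins deliver clients to them and start ATP hydrolysis, and nucleotide exchange factors such as the BAG proteins release the client. CCT is a ring of related subunits that encloses actin, tubulin and other proteins while they fold. The endoplasmic reticulum (ER) and the mitochondrion each have a set of their own, in which Hspa5 (BiP) and Hspa9 (mortalin) are the HSP70 members. Heat shock factor 1 switches on cytosolic chaperone genes through heat shock elements, and the unfolded protein response switches on ER chaperone genes through ER stress response elements. Erythroid cells and antibody-secreting cells are known for a high load of newly made protein.

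These response elements are shown for genes whose levels are given below, as they lie upstream of the start sites. The promoters are those of RefSeq on GRCm38.p6, 250 bases before to 50 after the start as supplied, and 34 of the 40 genes had one. Capitals mark the element, and all other bases are in lower case. For the ER genes Hspa5 (chr2:34771995-34772073, plus strand), Hsp90b1 (chr10:86705503-86705686, minus strand) and Dnajc3 (chr14:118937797-118937875, plus strand), the capitals are matches, on either strand, to CCAAT and CCACG with 9 bases of any kind between them.
Hspa5: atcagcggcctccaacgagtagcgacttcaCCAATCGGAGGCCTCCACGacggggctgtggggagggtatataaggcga
Hsp90b1: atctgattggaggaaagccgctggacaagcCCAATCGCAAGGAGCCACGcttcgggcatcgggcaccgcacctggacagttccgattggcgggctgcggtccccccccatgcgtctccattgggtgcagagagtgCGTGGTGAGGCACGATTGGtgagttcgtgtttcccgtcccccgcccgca
Dnajc3: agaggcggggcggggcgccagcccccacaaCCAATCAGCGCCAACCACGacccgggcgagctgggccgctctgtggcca

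Below are windows of 3 genes with heat shock elements: the shared upstream region of Hspe1 and Hspd1 printed on the strand of Hspe1 (chr1:55088029-55088106, plus strand), Dnajb6 (chr5:29735822-29735894, plus strand) and Hspa1b (chr17:34959305-34959372, minus strand). In Hspe1 and Dnajb6 the capitals mark 3 units in a row (GAA, then TTC, then GAA, with 2 bases of any kind between neighbors) on either strand, and overlapping matches are joined. In Hspa1b they mark the shorter pair GAANNTTC.
Hspe1: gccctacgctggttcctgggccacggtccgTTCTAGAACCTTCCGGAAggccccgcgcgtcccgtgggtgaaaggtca
Dnajb6: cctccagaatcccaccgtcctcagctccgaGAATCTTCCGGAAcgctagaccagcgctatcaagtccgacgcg
Hspa1b: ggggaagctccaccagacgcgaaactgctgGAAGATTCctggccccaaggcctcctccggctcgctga

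The ER stress response element was in the promoter of Hspa5, Dnajc3 and Hsp90b1, against 0.137% of 27025 genes with a promoter. A second form, ATTGG and CCACG with 1 base of any kind between them, was in Dnajb11 among the members, just downstream of its start, against 0.0444% of genes. The heat shock element with 3 units was in Hsph1 (just downstream of its start), Dnajb6, Hspd1 and Hspe1, against 0.662% of genes. Hspd1 and Hspe1, which encode the mitochondrial chaperonin and its lid, start in opposite directions from one region of chromosome 1, and the same bases (55088059 to 55088076) gave the matches of both. The head-to-head pair of units GAANNTTC, part of the longer element, was in 10 members, against 9.04% of genes. The tail-to-tail pair TTCNNGAA, also part of it, was in 6 members, against 9.60% of genes. Such a match is a description of the letters. The promoters of Hspa1a and Hspa1b, neighbors on chromosome 17, were identical at 296 of 300 bases.

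No chaperone gene passed the adjusted threshold. Of the 37 genes tested, 0 were called at an adjusted p under 0.05 with a fold change above 1.5 (limma, Benjamini-Hochberg over all probe sets), as were 0 of all probe sets tested (percent called 0). The smallest adjusted p was 0.321, reached by Dnajb11, Dnajb2 and Hspe1 among the brightest probe sets. With an unadjusted p below 0.05 and the same fold, 7 members were lower (18.9%, against 12.8% of all genes) and 2 were higher (5.41%, against 2.80% of all genes). The 7 were Hspa8, Dnajb11, Cct3, Cct4, Cct5, Tcp1 and Hspe1, and the 2 were Hspa1b and Dnajb2. The split was 15 lower to 1 higher when arrays were scaled to their control probe sets (21.8% and 1.18% of all genes), and 5 lower to 3 higher under quantile normalization (7.35% and 5.39% of all genes). Without control mice 1 and 2 it was 0 to 0 (2.36% and 0.799% of all genes). Leaving out single mice gave between 2 lower (without control mouse 1, 5.65% of all genes) and 13 lower (without RST mouse 2, 20.5% of all genes).

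Mean levels were lower in RST mice for 29 members and higher for 8. The 29 are 78.4% of members, beside 67.6% of all genes tested. Under quantile normalization 26 were lower and 11 higher, beside 54.0% of all genes lower. Without RST mouse 4 the split was 24 to 13, beside 58.9% of all genes lower. Log2 fold changes are given as RST minus control. Their median was −0.51 over members and −0.24 over all genes, so the median member lay −0.26 from the median gene. Without RST mouse 4 the member median was −0.27, the median gene −0.11 and the distance −0.17. The distance was −0.045 with the level of the hybridization controls (transcripts added to each array) as a covariate and −0.081 without control mice 1 and 2. With that covariate 23 members were lower and 14 higher, beside 63.8% of all genes lower. Without those control mice 24 were lower and 13 higher, beside 64.8% of all genes lower. In both settings members thus stood near the share of all genes. The median gene itself stood at −0.45 when arrays were scaled to their control probe sets and at −0.05 under quantile normalization. Members were also brighter than most genes, with a median log2 level of 7.12 (range 3.38 to 11.76) beside 5.19.

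For 9 members each RST mouse lay below each control mouse (24.3%, beside 6.57% of all genes), and for 3 each RST mouse lay above (8.11%, beside 2.37% of all genes). The 9 were Hspa8, Hsph1, Dnajc7, Dnajb11, Hspe1, Cct2, Cct3, Cct4 and Tcp1. The 3 were Dnajb2, Cct7 and Cct8. With arrays scaled to their control probe sets 10 were lower and 0 higher without overlap, beside 8.60% and 1.30% of all genes. Among the 12 genes Cct2, Cct3, Cct4, Tcp1, Cct7 and Cct8 are all subunits of a single complex.

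**Figure D1:**
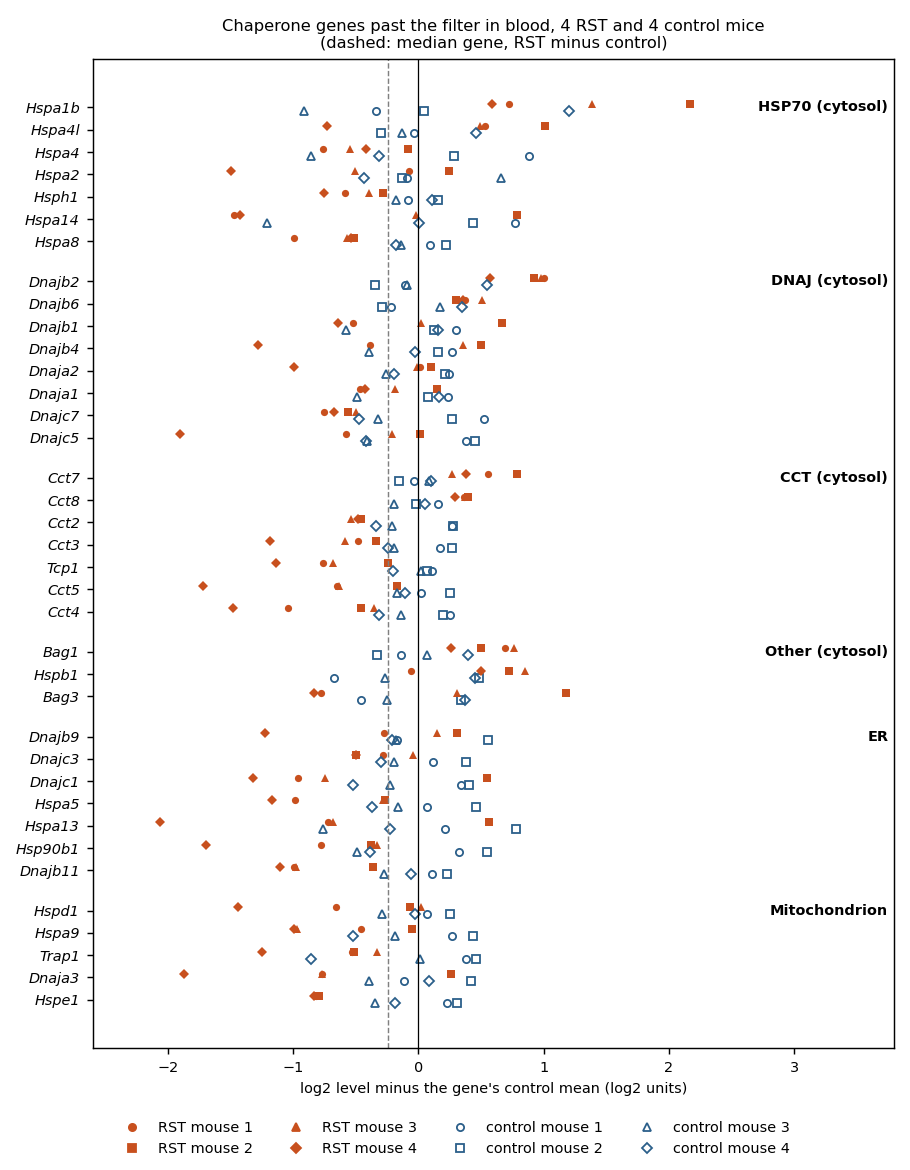
Log2 level of each of the 37 chaperone genes past the filter (brightest probe set) minus the gene's mean in control mice, with filled markers for RST mice and open markers for control mice, grouped by class and compartment. The dashed line is the median gene at −0.24, and RST means were lower for all 5 mitochondrial genes and all 7 ER genes, although Dnajb9 turned to 0.065 under quantile normalization.

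In the values below, mice are in the order 1 to 4 within each group. Hspa8 (Hsc70), the constitutive cytosolic HSP70, had log2 levels of 10.38, 10.86, 10.80 and 10.83 in RST mice, against 11.46, 11.59, 11.23 and 11.19 in control mice. The groups did not overlap, and RST mouse 1 lay apart from the other RST mice. The log2 fold change came to −0.65 (standard error, SE, 0.25, with an unadjusted p of 0.023 and an adjusted p of 0.332 in limma). Its other bright probe sets gave −0.69 and −0.67, and a dim one gave 0.03.

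Hspa1b is a stress-inducible HSP70. Its levels were 6.86, 8.31, 7.53 and 6.73 in RST mice, against 5.80, 6.19, 5.23 and 7.34 in control mice. Control mouse 4 lay above RST mice 1 and 4, so the groups overlapped. The log2 fold change was 1.22 (SE 0.47, adjusted p of 0.332 in limma). Left-out mice moved it between 0.90 (without RST mouse 2) and 1.62 (without control mouse 4). The other probe sets of Hspa1b were dimmer and gave 0.98 and 0.94. The one at 0.98 passed the filter through its RST values only, so it is no separate support.

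Hspa1a, a near-identical neighbor of Hspa1b, was below the filter. Its probe set read 1.92, 2.98, 2.70 and 1.93 in RST mice, against 1.59, 1.79, 1.85 and 1.78 in control mice. All RST mice were above all control mice, at a level where most probe sets of the array were brighter. Since both genes share nearly all of their sequence, the signal of one may include the other.

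Hsph1 (Hsp105), an HSP110 protein that exchanges nucleotide for HSP70, read 9.85, 10.16, 10.05 and 9.69 in RST mice, against 10.36, 10.60, 10.26 and 10.55 in control mice. RST mice were all below control mice by this probe set, at a log2 fold change of −0.51 (SE 0.24 and an adjusted p of 0.381 in limma), and a dimmer one gave −0.65 with overlap. The HSP110 relative Hspa4 (Apg-2) had a log2 fold change of −0.45, and its other probe sets gave −0.89 to −0.12. Its direction turned in a fit with hybridization controls as a covariate (0.064) and without control mice 1 and 2 (0.13). A further relative, Hspa4l (Apg-1), stood at 0.33, and all 5 of its probe sets were on the higher side (0.33 to 0.89). By the brightest probe set of Hspa4l RST mouse 4 was the lowest of the 8 mice, while control mouse 3 was the lowest by some others.

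Of the remaining cytosolic HSP70 genes, Hspa14, a ribosome-associated member, had a log2 fold change of −0.53 and Hspa2, known for its role in spermatogenesis, one of −0.46. Their SEs were 0.55 and 0.39, and the groups overlapped in both. Leaving out RST mouse 2 put Hspa14 at −0.97 and leaving out RST mouse 1 put it at −0.22, and its direction turned with the covariate (0.19) and without control mice 1 and 2 (0.072). Its other probe sets gave −0.22 and −0.21. Hspa2 stood at −0.11 without RST mouse 4. As a class, the 10 HSP70 genes tested had 8 lower and 2 higher means. Their median log2 fold change was −0.52, or −0.27 relative to the median gene.

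Bag3, a co-chaperone for selective autophagy, read 2.62, 4.57, 3.70 and 2.56 in RST mice, against 2.94, 3.73, 3.14 and 3.77 in control mice (log2 fold change −0.03). Dnajb1 (Hdj1), the main inducible DNAJ protein of the cytosol, read 7.31, 8.49, 7.85 and 7.19 in RST mice, against 8.13, 7.96, 7.25 and 7.99 in control mice (log2 fold change −0.12). For both genes RST mouse 2 was the highest and RST mouse 4 the lowest of the 8 mice, and the sign of both differences turned in 5 of the alternatives.

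The small heat shock protein Hspb1 (Hsp25) read 4.21, 4.99, 5.12 and 4.77 in RST mice, against 3.60, 4.75, 4.00 and 4.72 in control mice. The difference came to 0.51 on the log2 scale (SE 0.34) and its other probe set gave 0.60, with overlap in both. Hsf2, a heat shock factor, was below the filter at 1.87, 2.53, 1.92 and 1.92 in RST mice, against 2.00, 1.80, 1.92 and 1.88 in control mice, so its level could not be ordered between groups.

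Among the DNAJ genes Dnajb2 and Dnajb6 stood on the higher side and the other 11 on the lower, although Dnajb1, Dnajb4 and Dnajb9 were just above 0 under quantile normalization. Dnajb2 (Hsj1), which carries ubiquitin-binding motifs and passes clients to the proteasome, read 10.43, 10.35, 10.40 and 9.99 in RST mice, against 9.32, 9.07, 9.33 and 9.97 in control mice. The groups did not overlap, but RST mouse 4 and control mouse 4 differed by a small step. Its log2 fold change was 0.87 (SE 0.27, adjusted p of 0.321 in limma). In the alternatives it lay between 0.64 and 1.05.

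Dnajb6, a suppressor of protein aggregation, had 4 probe sets, all on the higher side. The brightest read 11.94, 11.87, 12.08 and 11.93 in RST mice, against 11.35, 11.28, 11.74 and 11.92 in control mice (log2 fold change 0.39). Another read 9.80, 9.75, 9.69 and 9.56 in RST mice, against 8.42, 8.32, 8.57 and 9.19 in control mice (log2 fold change 1.07), without overlap. The 4 probe sets thus spanned 0.39 to 1.07, and the brightest was the smallest.

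Dnajc7 (Tpr2), a co-chaperone that bridges HSP70 and HSP90, read 7.39, 7.58, 7.64 and 7.47 in RST mice, against 8.67, 8.41, 7.82 and 7.67 in control mice. The RST mice were close together and the control mice spread, with the lowest control mouse just above. Its log2 fold change was −0.62 (SE 0.29). Dnajc5 (cysteine string protein), which guards vesicle proteins, stood at −0.67 (SE 0.42) with overlap, and at −0.26 without RST mouse 4. Its other 4 probe sets gave −0.60 to −0.04. Among the general HSP70 partners Dnaja1 stood at −0.23, and its other probe sets gave −0.75 and −0.69. Dnaja2 (−0.22) and Dnajb4 (−0.20) turned in direction in 3 and 5 of the alternatives. Over all 13 DNAJ genes the median log2 fold change was −0.26, or −0.015 relative to the median gene.

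CCT subunit genes split into 5 lower and 2 higher. Cct4 (CCT delta) read 7.65, 8.24, 8.35 and 7.22 in RST mice, against 8.95, 8.90, 8.56 and 8.38 in control mice (log2 fold change −0.83, SE 0.31). Tcp1 (CCT alpha) read 7.55, 8.06, 7.63 and 7.17 in RST mice, against 8.41, 8.38, 8.33 and 8.11 in control mice (log2 fold change −0.71, SE 0.27). In both genes the highest RST mouse was below the lowest control mouse by the brightest probe set. The other probe sets of Cct4 gave −0.97 to −0.10. Those at −0.97, −0.88 and −0.10 overlapped, and the one at −0.54 did not.

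Cct3 (CCT gamma) read 7.47, 7.61, 7.37 and 6.76 in RST mice, against 8.12, 8.22, 7.75 and 7.70 in control mice (log2 fold change −0.65, SE 0.28). Cct2 (CCT beta) read 8.72, 8.74, 8.66 and 8.71 in RST mice, against 9.47, 9.47, 8.99 and 8.85 in control mice (log2 fold change −0.49, SE 0.25). Neither overlapped by its brightest probe set, and the RST mice were nearly equal for Cct2. Other probe sets gave −1.09 to −0.07 for Cct3 and −0.56 to −0.44 for Cct2. Cct5 (CCT epsilon) read 6.73, 7.21, 6.75 and 5.66 in RST mice, against 7.40, 7.63, 7.21 and 7.28 in control mice, so RST mouse 2 and control mouse 3 met and RST mouse 4 was far below. On the log2 scale it differed by −0.79 (SE 0.33), or by −0.48 without RST mouse 4.

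On the other side, Cct7 (CCT eta) read 9.97, 10.20, 9.68 and 9.79 in RST mice, against 9.38, 9.26, 9.50 and 9.52 in control mice. Its log2 fold change was 0.50 (SE 0.24, adjusted p of 0.383 in limma), and its second probe set gave 0.86, also without overlap. Cct8 (CCT theta) read 9.05, 9.08, 9.06 and 8.98 in RST mice, against 8.84, 8.66, 8.49 and 8.74 in control mice (log2 fold change 0.36, SE 0.23). Both kept a higher mean in all 20 alternatives, down to 0.30 for Cct7 and 0.15 for Cct8 with arrays scaled to their control probe sets, where the groups of both overlapped.

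A difference between subunits within an array is free of a constant shift of that array. Cct7 minus Cct3, each set relative to its control mean, was 0.85 to 1.57 in RST mice, against −0.43 to 0.35 in control mice, a difference of 1.15 (SE 0.24), or 0.957 under quantile normalization. Cct8 minus Cct3 was 0.74 to 1.48 in RST mice, against −0.29 to 0.30 in control mice, a difference of 1.00 (SE 0.20), or 0.826 under quantile normalization. Neither overlapped. These pairs were chosen after their values were seen, so the differences are given with no test.

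**Figure D2:**
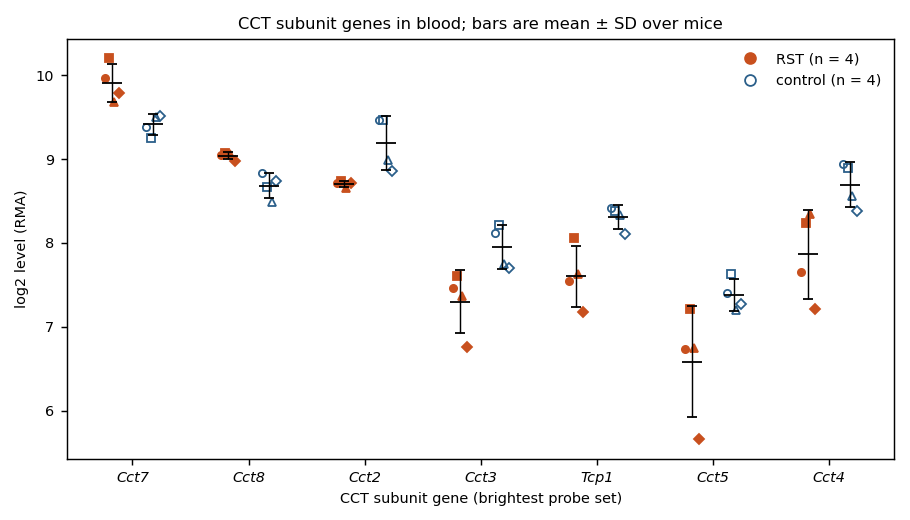
Log2 level of the 7 CCT subunit genes (brightest probe set) in each RST mouse (filled, left) and each control mouse (open, right). Bars show mean ± SD over 4 mice. Cct7 and Cct8 were higher and Cct2, Cct3, Tcp1 and Cct4 lower in each RST mouse than in any control mouse, while Cct5 touched between groups.

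All 7 ER members had lower means in RST mice, with log2 fold changes of −0.86 to −0.26, although Dnajb9 turned to 0.065 under quantile normalization and to 0.062 without RST mouse 4. Dnajb11 (ERdj3), a co-chaperone of BiP, read 6.60, 7.23, 6.62 and 6.49 in RST mice, against 7.70, 7.82, 7.32 and 7.54 in control mice. It was the 1 ER gene whose groups did not overlap, with a log2 fold change of −0.86 (SE 0.27, adjusted p of 0.321 in limma).

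Hspa5 (BiP), the HSP70 of the ER lumen, read 7.78, 8.50, 8.49 and 7.61 in RST mice, against 8.84, 9.23, 8.61 and 8.40 in control mice. Control mouse 4 lay just under RST mice 2 and 3. The log2 fold change was −0.67 (SE 0.31, adjusted p of 0.368 in limma). Hsp90b1 (Grp94), the HSP90 of the ER, read 6.59, 6.99, 7.04 and 5.68 in RST mice, against 7.70, 7.92, 6.88 and 6.98 in control mice. RST mouse 4 was the lowest and control mice 1 and 2 the highest, and the other 5 mice lay close together. The log2 difference was −0.79 (SE 0.37), or −0.49 without RST mouse 4, and its other probe set gave −1.25.

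Hspa13 (Stch), an HSP70 of microsomes, read 4.38, 5.67, 4.42 and 3.04 in RST mice, against 5.31, 5.88, 4.34 and 4.88 in control mice (log2 fold change −0.72, SE 0.51). Its spread among RST mice was the wider one, and without RST mouse 4 it stood at −0.28. Its other probe sets past the filter gave −0.21 and −0.16. Dnajc1 (ERdj1), a membrane protein that binds ribosomes, stood at −0.62 (other probe sets −0.14 and −0.13), Dnajc3 (p58IPK), an inhibitor of the kinase PERK, at −0.33 and Dnajb9 (ERdj4) at −0.26. One dimmer probe set of Dnajc3 gave −1.07 without overlap. Dnajc3, Hspa5 and Hsp90b1 carry the ER stress response element printed above.

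The 5 mitochondrial members also all had lower means, from −0.81 to −0.53. Hspe1 (Hsp10), the lid of the mitochondrial chaperonin, read 8.25, 8.27, 8.27 and 8.23 in RST mice, against 9.29, 9.37, 8.71 and 8.88 in control mice. RST mice were nearly equal and all below control mice, of which 1 and 2 were the highest. The log2 fold change was −0.81 (SE 0.25, adjusted p of 0.321 in limma), and its other probe set gave −0.85, also without overlap.

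Hspd1 (Hsp60), the chaperonin itself and the neighbor of Hspe1 with the same upstream element, read 6.58, 7.17, 7.26 and 5.80 in RST mice, against 7.30, 7.48, 6.95 and 7.20 in control mice. Control mouse 3 lay below RST mice 2 and 3, and the log2 fold change was −0.53 (SE 0.34), or −0.23 without RST mouse 4. Dnaja3 (Tid1), the mitochondrial DNAJ protein, read 5.84, 6.87, 5.84 and 4.74 in RST mice, against 6.50, 7.03, 6.21 and 6.70 in control mice (log2 fold change −0.79, SE 0.41). It stood at −0.43 without RST mouse 4, which was lowest for both genes, and its other probe set past the filter gave −0.19. Trap1, the mitochondrial HSP90, had a log2 fold change of −0.66. Hspa9 stood at −0.62 by its brightest probe set, but its 4 probe sets past the filter lay on both sides (−0.73 to 0.25).

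Bag1, a nucleotide exchange factor that links HSP70 to the proteasome, read 10.71, 10.52, 10.78 and 10.28 in RST mice, against 9.88, 9.69, 10.09 and 10.42 in control mice. Control mouse 4 was above RST mouse 4 and below the other RST mice. The log2 fold change was 0.55 (SE 0.26, adjusted p of 0.379 in limma).

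By compartment, the median log2 fold change was −0.67 over the 7 ER genes, −0.66 over the 5 mitochondrial genes and −0.23 over the 25 cytosolic genes tested, of which 17 were lower and 8 higher. Relative to the median gene these were −0.43, −0.41 and 0.01. The CCT genes, which are cytosolic, had a median of −0.65, or −0.40 relative to the median gene, while the other 18 cytosolic genes had −0.21, or 0.03 relative to it. The ER median relative to the median gene shrank to −0.045 in a fit with hybridization controls as covariate, to −0.10 without control mice 1 and 2 and to −0.28 without RST mouse 4. The mitochondrial one shrank to −0.22 with the covariate.

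Taken mouse by mouse, a class score was the median over its genes of the level minus the gene's mean, less the same median over all genes of that array. The CCT score was −0.19, −0.01, −0.26 and −0.29 in RST mice, against 0.23, 0.25, 0.11 and 0.05 in control mice, with no overlap. The mitochondrial score was −0.34, 0.08, −0.40 and −0.43 in RST mice, against 0.34, 0.48, 0.04 and 0.19 in control mice, and RST mouse 2 lay above control mouse 3. The ER score was −0.33, −0.05, 0.03 and −0.52 in RST mice, against 0.31, 0.45, −0.04 and −0.06 in control mice, with more overlap. HSP70, DNAJ and cytosolic scores overlapped between the groups too.

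**Figure D3:**
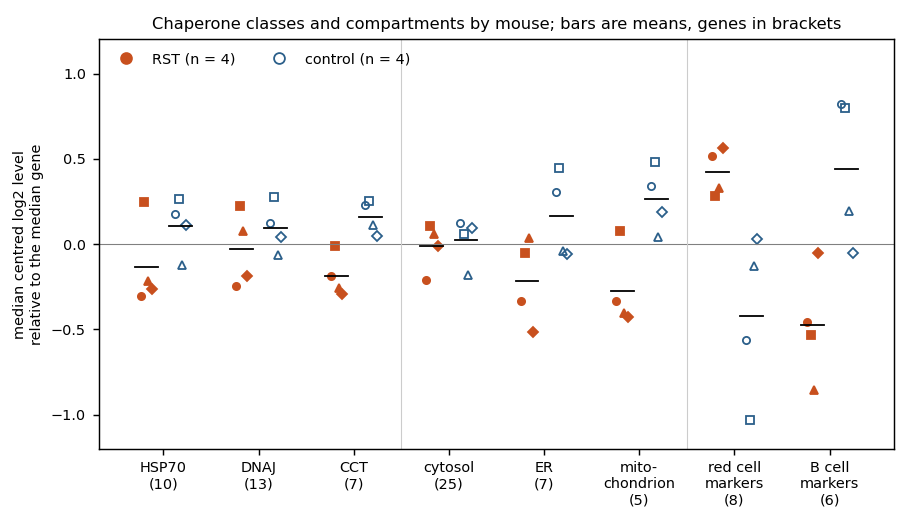
Median centred log2 level of each chaperone class, each compartment and 2 marker lists in every RST mouse (filled, left) and control mouse (open, right), relative to the median gene of that array, with bars for group means and the number of genes in brackets. CCT scores were −0.29 to −0.01 in RST mice and 0.05 to 0.25 in control mice, and red cell and B cell markers lay on opposite sides of 0 in RST mice.

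Probe sets of one gene mostly lay on one side. Of the 26 members with 2 or more probe sets past the filter, 18 had all of them lower and 5 had all of them higher. These include a probe set of Hspa1b (0.98) that passed through RST values only. They also include a probe set of Dnajc1 (−0.14) that passed through control values only. The 3 with both signs were Hspa8, Hspa9 and Dnajb4. The other 11 members rest on 1 probe set, among them Dnajb2, Dnajb11, Dnajc7, Cct5, Cct8, Tcp1, Hspd1 and Bag1.

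**Figure D4:**
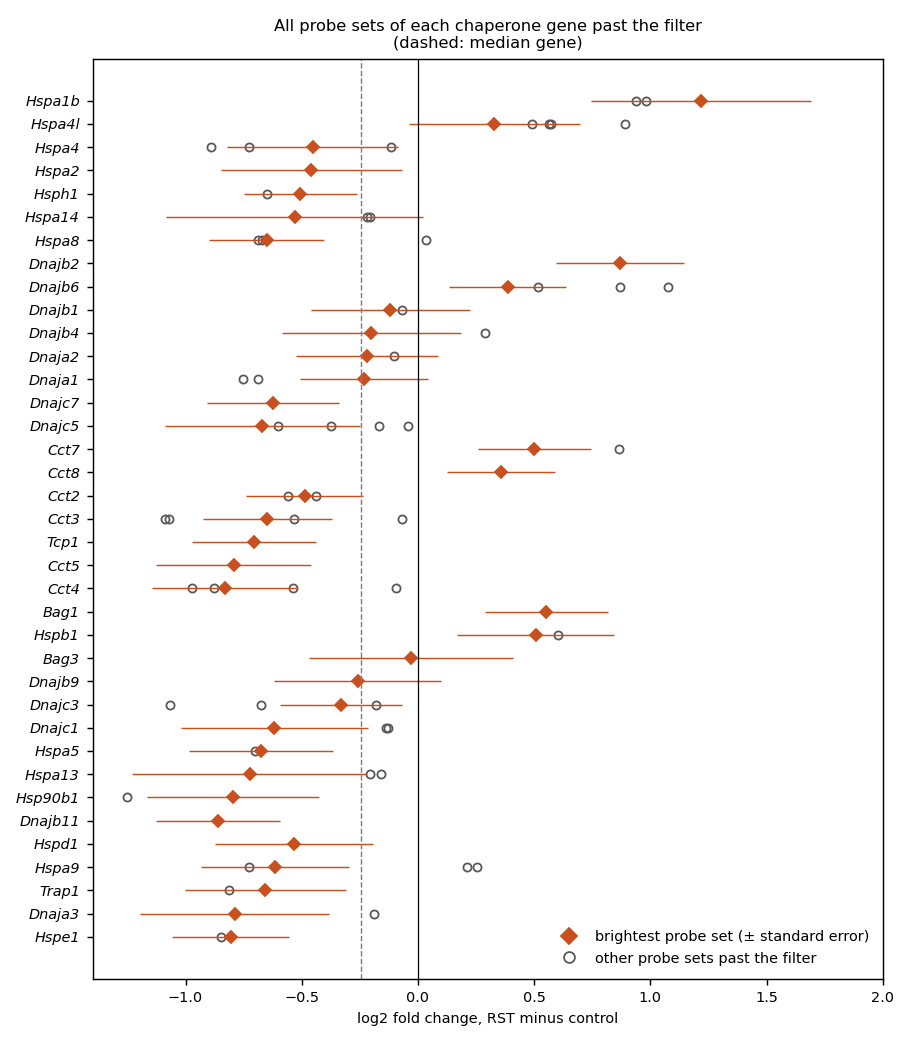
Log2 fold change, RST minus control, of each probe set past the filter for the 37 chaperone genes, with the brightest probe set as a diamond (± standard error) and the others as circles. The dashed line is the median gene at −0.24, and circles fall on the far side of 0 from the diamond for Hspa8, Hspa9 and Dnajb4.

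Chaperone genes outside the 40 were read from lists written with earlier results of these data known, and 0 of their genes passed the adjusted threshold in limma. Of 21 other ER folding and unfolded protein response genes, 19 had lower and 2 higher means, beside 67.6% of all genes lower. Their median log2 fold change was −0.52, or −0.28 relative to the median gene. At the unadjusted threshold 5 were lower, beside 12.8% of all genes. Syvn1 (Hrd1), the ubiquitin ligase of ER-associated degradation, stood at −1.36 (SE 0.38) with overlap, and Pdia3 (ERp57), a disulfide isomerase, at −0.82 (SE 0.29) without overlap. Pdia3 read 6.95, 7.47, 7.51 and 6.98 in RST mice, against 8.01, 8.59, 7.88 and 7.69 in control mice. The ER genes of both lists thus had mostly lower means, as did 67.6% of all genes.

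Of 9 prefoldin subunits and CCT partners, Cct6a (CCT zeta) among them, 8 were lower and 1 higher. Their median log2 fold change was −0.64, or −0.39 relative to the median gene. Pfdn4, a subunit of the prefoldin complex that hands actin and tubulin to CCT, stood at −1.07 and Cct6a at −0.73, both with overlap. Of 13 cytosolic HSP90 and co-chaperone genes tested (16 listed), 9 were lower and 4 higher, with a median of −0.50 (−0.26 relative to the median gene). St13 (Hip), which steadies HSP70 on its client, stood at −1.0 and Bag6, which guards membrane proteins, at 0.57, both without overlap.

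Of 19 other DNAJ genes tested (21 listed), 17 were lower and 2 higher. Their median log2 fold change was −0.56, or −0.32 relative to the median gene. Dnajc9, a histone co-chaperone, stood at −0.92 without overlap, and Dnaja4 at 0.87 with overlap. Of 10 other mitochondrial chaperones and proteases tested (11 listed), 7 were lower and 3 higher, with a median of −0.19 (0.055 relative to the median gene). Hscb, a J-protein of iron-sulfur cluster assembly, stood at 0.83 without overlap, and Clpp, a matrix protease, at −0.96 with overlap. So the mitochondrial genes outside the 40 lay at about the median gene, unlike the 5 members, and this difference was not tested.

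Markers of some blood cell types also differed in level between the groups, with 0 of any type past the adjusted threshold in limma. Of 8 red cell markers tested (10 listed), 0 were lower and 8 higher, with a median log2 fold change of 0.52. Their summed linear signals were 24600 to 26600 in RST mice, against 19100 to 23600 in control mice. The list was uneven, from 0.011 for Tfrc and 0.105 for Alas2, both with overlap, to 1.33 for Ank1 and 1.36 for Epb42. Of 6 B cell markers tested (8 listed), 6 were lower and 0 higher, with a median of −1.10 and sums of 1430 to 1920 in RST mice, against 2450 to 5130 in control mice. Of 7 T cell markers tested (8 listed), 7 were lower and 0 higher, with a median of −0.90 and sums of 841 to 1520 in RST mice, against 1560 to 2350 in control mice. Plasma cell markers (5 of 6 tested, 4 lower and 1 higher, median −0.48) summed to 221 to 257 in RST mice, against 277 to 568 in control mice. Taken singly, each of these 5 markers overlapped between the groups. The brightest, Irf4, averaged a log2 level of 7.43 in RST mice, against 8.04 in control mice. The plasma cell marker Tnfrsf17 and the B cell marker Pax5 were below the filter.

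Of 5 monocyte markers tested (6 listed), 4 were lower and 1 higher, with sums of 536 to 992 in RST mice, against 857 to 1480 in control mice. Of 7 neutrophil markers tested (8 listed), 4 were lower and 3 higher, with sums of 4130 to 11500 in RST mice, against 7500 to 12600 in control mice. Their log2 fold changes were uneven, from −2.98 for Ngp and −1.79 for Ltf to 0.35 for Cxcr2, all with overlap. All 6 platelet markers were tested, 1 lower and 5 higher, with sums of 9350 to 11600 in RST mice, against 9560 to 11000 in control mice. The part of these cell types in the lower ER, mitochondrial and CCT genes and in the higher Hspa1b, Dnajb2, Dnajb6, Bag1, Cct7 and Cct8 was not tested.

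Single arrays also moved with the chaperone genes. Control transcripts added before hybridization (18 probe sets) averaged a log2 level of 12.71, 12.35, 12.73 and 12.71 in RST mice, against 11.93, 11.90, 12.74 and 12.60 in control mice. RST mouse 4 was the lowest of the 8 mice for 24 of the 37 members (64.9%), beside 41.5% of all probe sets tested. Without RST mouse 4, 5 members changed sign and 9 shrank by over 1.5 times, namely Hspa2, Hspa13, Hspa14, Dnaja3, Dnajc1, Dnajc5, Cct5, Hsp90b1 and Hspd1. Without it 5 members were higher without overlap, beside 6.91% of all genes, and 4 were higher at the unadjusted threshold, beside 5.14%. The part of these arrays in the results beyond such values was not tested.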

How the data were processed

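Whole-blood RNA of 4 RST and 4 control mice (30 ng each) was amplified and run on Affymetrix mouse arrays, 1 per mouse. The values that the authors deposited are log2 levels of probe sets, background-corrected and summarized. Any normalization between arrays left their distributions unequal. Array medians ran from 3.19 (RST mouse 4) to 3.46 (RST mouse 1). Upper quartiles ran from 4.50 (RST mouse 4) to 5.37 (control mouse 1). Upstream tools listed in the submitters' notes are RMA, Partek and Affymetrix Expression Console (version 1.2.0.20), and the methods give GSRMA for import into Partek Genomic Suite. Presence calls were not used here. In their place a probe set was tested where it exceeded the median of its array in 2 or more of the 4 arrays of either group (25084 in all), without the 64 control probe sets.

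Groups were set against each other on these log2 values in limma 3.58.1 (R 4.3.3, lmFit and eBayes) with Benjamini-Hochberg adjustment over all probe sets tested. A call needed an adjusted p below 0.05 together with a fold change over 1.5. The table carries no depth, and the number of arrays limits precision. The brightest probe set that passed the filter stood for its gene. Names came from the platform annotation, updated through Entrez identifiers for 34754 probe sets, and 34958 probe sets had 1 gene name, 932 had several and 9211 had none listed. Members under the filter came from a fit without it.

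The members, lists and markers were chosen with earlier results of these data known. Every member is accounted for. Values per mouse are given for members without overlap, the 2 largest differences of each class and of the ER and mitochondrion, heat shock response genes and the constitutive Hspa8, Hspa5, Hsp90b1 and Hspd1. Of each other chaperone list the 2 genes with the smallest p are named. Bag1, Dnajb6 and all gene pairs were picked with their values in view. Alternatives changed the filter, normalization, floor, array weights, prior, test, probe set, replicate block, hybridization controls and each array. Slide and scan date were not used here. Plots used matplotlib 3.10.9 (Python 3.11.15).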

Additional observations from a re-analysis of the deposited data

Results flagged for a closer look

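Of 88 groups of 4 mice examined for a mouse far from the others, 4 had one, where chance gives about 1 in 20 (4.4). Hspa8 was low in RST mouse 1, at a log2 level of 10.38 beside 10.80 to 10.86 in the other RST mice. Dnaja2, an HSP70 co-chaperone of the cytosol, was low in RST mouse 4, at 6.80 beside 7.79 to 7.90. Dnajb9, a BiP co-chaperone, was high in control mouse 2, at 7.48 beside 6.71 to 6.76 in the other control mice. The HSP70 score was high in RST mouse 2, at 0.246 beside −0.307 to −0.217 in the other RST mice.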

How the results depend on the processing

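No member passed the adjusted threshold in any of the 19 alternatives with a test, and 30 of 37 kept their sign in every alternative, Hspa1b, Dnajb2, Hspa8, Dnajb11, Hspe1 and all CCT genes among them. Counts at the unadjusted threshold moved most. Against 7 lower and 2 higher, they were 15 and 1 with arrays scaled to their control probe sets (21.8% and 1.18% of all genes). In that setting 0 members were higher without overlap (1.30% of all genes). With the hybridization controls as a covariate 2 were lower (5.27% of all genes). Without control mice 1 and 2 the counts were 0 and 0 (2.36% and 0.799% of all genes). Array weights gave 13 lower and the methods' test 1 higher. The shares of all genes were not taken in these fits, so these counts cannot be set beside them. Leaving out 1 mouse gave 2 to 13 lower, 1 to 4 higher and 3 to 6 higher without overlap. There were 2 lower without control mouse 1 (5.65% of all genes), 12 without control mouse 4 (14.2%) and 13 without RST mouse 2 (20.5%). There were 3 lower without control mouse 2 (5.86% of all genes), RST mouse 1 (8.64%) or RST mouse 4 (6.57%). Shares of all genes moved too: without overlap on the higher side they were 4.28% without control mouse 4 (6 members) and 6.91% without RST mouse 4 (5 members). The causes were not tested.

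Medians relative to the median gene became −0.44 for members, −0.22 for DNAJ, −0.61 for CCT and −0.18 for cytosol with no filter, −0.15 for cytosol after quantile normalization and −0.50 for HSP70 with array weights. With the hybridization controls as a covariate they were −0.045 for members and for the ER (ER median −0.18), −0.048 for HSP70 and 0.20 for cytosol (cytosol median 0.064). Without control mice 1 and 2 they were −0.0814 for members, −0.28 for CCT, 0.15 for cytosol and −0.10 for the ER.

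Among the genes that turned sign, Hspa14 (−0.53) and Hspa4 (−0.45) had differences near the member median. With the covariate Hspa4 stood at 0.064, Hspa14 at 0.19, Dnaja2 at 0.0067, Dnajb1 at 0.20, Dnajb4 at 0.088 and Bag3 at 0.16. Without control mice 1 and 2 Hspa4 stood at 0.13, Hspa14 at 0.072, Dnaja2 at 0.0075, Dnajb1 at 0.092 and Dnajb4 at 0.010. After quantile normalization Dnajb1 stood at 0.076, Dnajb4 at 0.12 and Dnajb9 at 0.065, and with probe sets averaged Dnajb4 stood at 0.043. Without 1 mouse each, Bag3 ran from −0.43 to 0.24, Dnajb1 from −0.38 to 0.056, Dnaja2 from −0.33 to 0.038, Dnajb4 from −0.44 to 0.16 and Dnajb9 from −0.45 to 0.062.

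The mice of both groups share only a number: same-number deviations correlated at −0.245, 0.422, 0.0463 and 0.20. With the number as a replicate block, 12 members were lower at the unadjusted threshold and 0 passed the adjusted one. The share of all genes in that fit was not taken, so the 12 cannot be set beside it.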

Other observations

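Further pairs of chaperone genes, chosen after their values were seen and so given with no test, differed within arrays. Dnajb2 minus Dnajc7, each relative to its control mean, was 1.24 to 1.76 in RST mice, against −0.63 to 1.02 in control mice. Bag1 minus Hspa8 was 0.80 to 1.68 in RST mice, against −0.55 to 0.58 in control mice. Dnajb6 minus Dnajb11, a cytosolic and an ER co-chaperone, was 0.66 to 1.49 in RST mice, against −0.52 to 0.44 in control mice. Cct7 minus Cct4 was 0.62 to 1.86 in RST mice, against −0.36 to 0.42 in control mice. These 4 pairs did not overlap. Hspa1b minus Hspa8, the inducible and the constitutive HSP70, was 1.13 to 2.68 in RST mice, against −0.78 to 1.38 in control mice, and overlapped. Hspa4l minus Hspa4 was −0.31 to 1.30 in RST mice, against −0.92 to 0.78 in control mice, and overlapped as well.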
